A study of Mus musculus with 9 samples.

Results

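Regulatory T (Treg) cells that had lost CBP were compared directly with Treg cells that had lost p300, to find which transcripts differ according to which of these related enzymes is missing. The comparison takes the 3 arrays of CBP-deleted cells and the 3 arrays of p300-deleted cells, 6 of the 9 arrays of the study, and all 12393 genes with a named probe set, each read by its brightest one. CBP-deleted cells carried a floxed Crebbp gene together with a Cre recombinase expressed from Foxp3 (fl-CBP/Foxp3cre). p300-deleted cells carried a floxed p300 gene with the same Cre (fl-p300/Foxp3cre). All mice were on a C57Bl/6 background, and the cells were CD4+CD25+ cells separated with magnets, 3 independent samples per genotype. The remaining 3 arrays are controls, given as Foxp3cre in the genotype labels and as wild type in the sample names. They are on neither side of the comparison and not in the main fit, and are quoted as levels. An alternative fit of all 9 arrays adds them to the estimate of the spread, and the choice of probe set also uses all 9 arrays. The labels give neither the ages of the mice nor the number of mice behind a sample, and p-values therefore measure the spread between these samples. The separation selects on CD4 and CD25, not on Foxp3, and Cre acts only in cells that express Foxp3.

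CBP and p300 are large, closely related acetyltransferases. They are recruited to enhancers and promoters by many transcription factors, among them CREB, NF-kappaB, AP-1, p53 and the STAT proteins, and acetylate histones and other proteins there. Treg cells are CD4+ T cells that restrain immune responses, and their identity rests on the transcription factor Foxp3, itself a target of acetylation. The enzymes share most of their known partners, and a direct comparison of the knockouts asks where the loss of one leaves other transcript levels than the loss of the other.

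Values are on a log2 scale, so that a difference of 1 is a doubling, and a difference is always given as CBP-deleted minus p300-deleted. Array medians lay between 5.49 and 5.59. Arrays of the same genotype correlated at 0.995 to 0.997 (CBP-deleted) and 0.994 to 0.996 (p300-deleted), and arrays of different genotypes at 0.991 to 0.994. The first principal component of the 6 arrays held 48.2% of the variance and placed the CBP-deleted arrays at 13.97, 15.60 and 14.33 and the p300-deleted arrays at -18.28, -14.58 and -11.04. The second held 21.2% and set CBP-deleted replicate 3 (-13.15) and p300-deleted replicate 1 (-13.70) apart from the other 4 arrays. Those same arrays had the highest readings of neutrophil genes. S100a8, an abundant neutrophil protein, read 7.64, 7.64 and 11.01 in the CBP-deleted arrays and 10.08, 7.69 and 8.77 in the p300-deleted arrays. Xist, which female cells express, read 3.44 to 3.80 in all 9 arrays and is used as a reference for readings that cannot be told from background. Probe sets of 18S ribosomal RNA averaged 7.75 ± 0.32 (SD, n = 3) over the CBP-deleted arrays and 8.52 ± 0.96 over those of p300-deleted cells, where replicate 2 read 9.62, and the groups overlapped; the part of this in the results was not tested.

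The genes behind the design were read first. Crebbp, which encodes CBP, read 7.35, 7.11 and 7.13 in CBP-deleted arrays and 7.67, 7.48 and 7.53 in p300-deleted arrays. All 3 CBP-deleted readings lay below all 3 p300-deleted readings, by -0.36 on average (SE 0.09, limma adjusted p = 0.0375). That call is not firm: with all 9 arrays in the fit the adjusted p was 0.101, and it was also lost without CBP-deleted replicate 2 or 3 and without any 1 of the p300-deleted replicates (range over 16 alternatives 0.0242 to 0.149). Which exon was floxed is not stated, so the reading of Crebbp is no check of its deletion if the probe set lies elsewhere. For the p300 gene no value is analysed here. Foxp3 read 2.73, 2.91 and 2.97 in CBP-deleted arrays and 2.58, 3.08 and 3.19 in p300-deleted arrays. The groups overlapped (difference -0.08, SE 0.15, adjusted p = 0.817), and all 6 readings lay below the Xist level, against 9.75, 9.58 and 9.48 in the control arrays. Between the knockouts this probe set therefore carries no information on the level of Foxp3. Il2ra, the gene of CD25, on which the cells were separated, read 9.17, 9.18 and 8.93 against 9.33, 9.22 and 9.31, a difference of -0.19 (SE 0.08, adjusted p = 0.166). Cd3e, a chain of the T cell receptor complex, was high in all 6 arrays (11.41 to 11.74) and Cd8a, a marker of CD8 T cells, low in all (4.02 to 4.49). Cd8b1, another marker of CD8 T cells, was not low, at 7.33, 7.21 and 7.47 against 6.71, 7.01 and 7.03.

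The transcriptomes of the knockouts differed widely. Of 12393 genes, 1386 (11.2%) differed at an adjusted p below 0.05, 828 of them higher in CBP-deleted cells (6.68%) and 558 higher in p300-deleted cells (4.50%). These shares are the background for every list count below. Most of the differences were modest: the median size among the called genes was 0.44, and 256 genes were at least 1.5-fold higher in CBP-deleted cells and 149 in p300-deleted cells. At least 2-fold differences numbered 88 and 35. In 1385 of the 1386 genes the arrays of the knockouts did not overlap, which was also true of 30.1% of all genes. The median difference over all genes was -0.0185. The count depends on the arrays used for the spread: it was 645 when the 3 control arrays were added to the fit, 746 without CBP-deleted replicate 2, 863 without CBP-deleted replicate 3 and 889 without p300-deleted replicate 2.

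**Figure D1:**
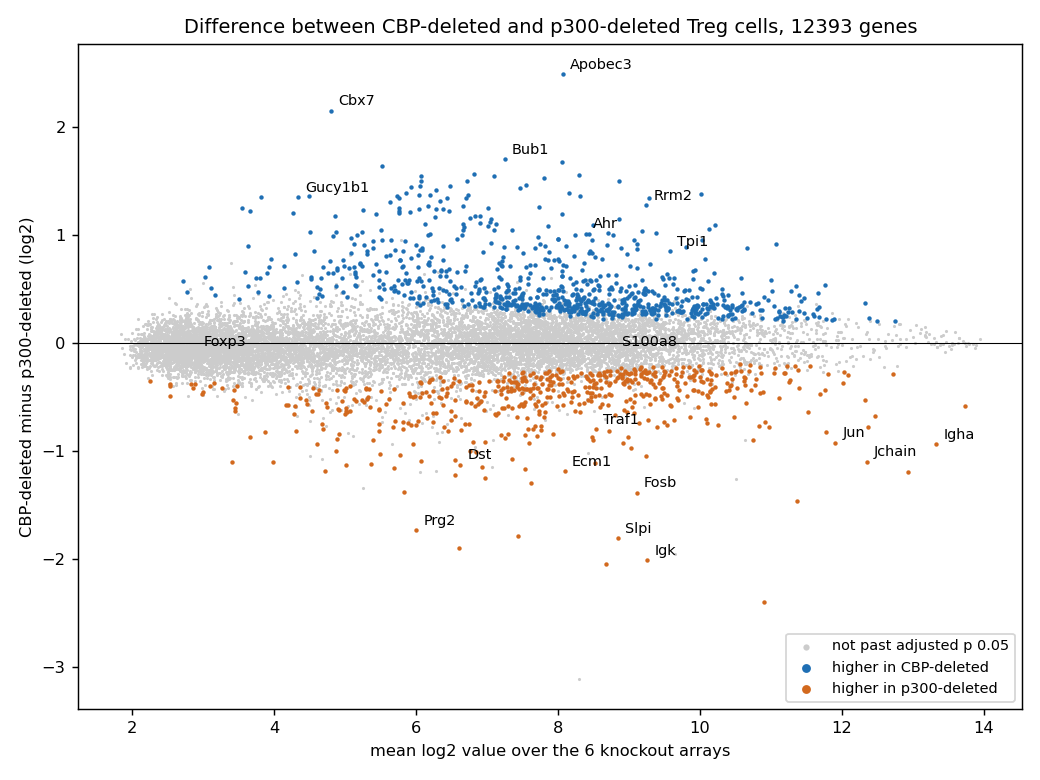
Difference between the knockouts (log2, CBP-deleted minus p300-deleted) against the mean log2 value over the 6 arrays, 1 point per gene. Blue genes (828) are higher in CBP-deleted cells and orange genes (558) in p300-deleted cells at an adjusted p below 0.05; Apobec3 (2.49) and Cbx7 (2.15) lie above all other genes, and the unlabelled orange points near and below Igk (-2.01) are immunoglobulin variable segments.

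The largest difference among the called genes was that of Apobec3, a cytidine deaminase that restricts retroviruses. It read 9.23, 9.33 and 9.39 in CBP-deleted arrays and 6.88, 6.67 and 6.94 in p300-deleted arrays. The groups were far apart and tight, at 5.61-fold (2.49, SE 0.09, adjusted p = 1.09e-06). The controls spread over the interval between them, at 8.71, 7.34 and 8.48. Cbx7, a Polycomb protein that reads methylated histone H3, followed at 6.21, 5.71 and 5.70 against 3.73, 3.60 and 3.86 (2.15, SE 0.15, adjusted p = 0.000253). Its p300-deleted readings are near the level of Xist, so its 4.43-fold difference may understate the change. Cbx7 is the next measured gene to Apobec3 on one side, and Cbx6, another Polycomb protein, is the next on the other side. Cbx6, named here for its position, read 8.54, 8.42 and 8.47 against 7.54, 7.37 and 7.64 (0.96, SE 0.09, adjusted p = 0.000347). The run of higher genes ended there: Dnal4, a dynein light chain next to Cbx6, was -0.33 (adjusted p = 0.0716) and Pdgfb, a growth factor next to Cbx7, was 0.08 (adjusted p = 0.758). Control replicate 2 was the lowest control for all 3 genes, at 7.34 for Apobec3, 4.08 for Cbx7 and 7.09 for Cbx6, while the other controls lay between the knockouts in each of them. Why these neighbouring genes differ together was not tested.

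Genes of mitosis made up most of the other top differences. Of the 15 named genes that were highest in CBP-deleted cells, all but Apobec3 and Cbx7 act in or around cell division: Bub1, Birc5, Ttk, Shcbp1, Ccna2, Spag5, Cep55, Ccnb2, Cenpk, Ube2c, Aurkb, Cdca3 and Nuf2. Of 34 measured mitosis genes all 34 were higher in CBP-deleted cells, from 0.66 to 1.70, with a median of 1.25, against 6.68% of all genes. Bub1, a kinase of the spindle checkpoint, read 7.87, 8.27 and 8.18 against 6.69, 6.21 and 6.30 (1.70, SE 0.14, adjusted p = 0.000346). Birc5 (survivin, a subunit of the chromosomal passenger complex) read 8.69, 8.97 and 9.04 against 7.56, 7.09 and 7.04 (1.67, SE 0.14, adjusted p = 0.000346). In both genes the lowest CBP-deleted array was more than 1 unit above the highest p300-deleted array.

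Other members span all phases of division. Ttk (a checkpoint kinase, 1.63), Ccna2 (cyclin A2, 1.55), Ccnb2 (cyclin B2, 1.53), Cep55 (a scaffold of abscission, 1.55), Ube2c (a ubiquitin-conjugating enzyme that works with the anaphase-promoting complex, 1.5) and Aurkb (the kinase of the passenger complex, 1.5) were each between 2.82-fold and 3.11-fold higher in CBP-deleted cells. Spag5 (1.55) and Nuf2 (1.45) bind the spindle or the kinetochore, and Cenpk (1.5) is a kinetochore protein. Cdca3, a trigger of mitotic entry, was 1.46 higher at the probe set used, while its other 2 probe sets, at 2.21 and 3.38, read no signal above Xist. Mki67, the proliferation marker Ki-67, read 9.35, 9.57 and 9.37 against 8.78, 8.03 and 8.06 (1.14, SE 0.17, adjusted p = 0.00276). Of the activators of these genes, Foxm1 was 0.49 higher (adjusted p = 0.0162) and Mybl2 0.96 higher (adjusted p = 0.000931). Mki67, Foxm1 and Mybl2 were named after their values were seen.

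The mean of the mitosis list was 7.41, 7.76 and 7.65 in CBP-deleted arrays and 6.66, 6.16 and 6.28 in p300-deleted arrays. The knockouts did not overlap in any of the 34 genes, so the mean could not overlap either and adds no support. The controls read 7.14, 6.83 and 7.88, with replicate 3 above all 6 knockout arrays and the others between the groups. For 32 of the 34 genes the control mean lay between the knockouts. The mitosis count was 33 with all 9 arrays in the fit and 31 without CBP-deleted replicate 2. In bulk RNA a smaller share of dividing cells and less of these transcripts per cell cannot be told apart.

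DNA replication genes followed the same order at a smaller size. Of 32 measured, 30 were higher in CBP-deleted cells and 0 in p300-deleted cells, with a median of 0.81. Rrm2, the regulated subunit of ribonucleotide reductase, read 9.69, 10.07 and 9.89 against 8.99, 8.37 and 8.46 (1.27, SE 0.15, adjusted p = 0.000883). Cdc6, which loads the replicative helicase, was 1.22 higher, Pola1, the catalytic subunit of DNA polymerase alpha, 1.14, and Gins1, a helicase subunit, 1.10. The members that did not pass were Pcna, the sliding clamp (0.27, adjusted p = 0.0665), and Tyms, whose readings of 3.15 to 3.70 are at background. Gmnn (geminin, an inhibitor of relicensing, outside the naming rule) was 1.02 higher. The mean of the replication list was 8.13, 8.28 and 8.22 in CBP-deleted arrays and 7.54, 7.36 and 7.42 in p300-deleted arrays. Controls read 7.86, 7.82 and 8.24, so that here too replicate 3 was level with CBP-deleted cells and the others lay between the groups. In the fit of all 9 arrays 28 members passed.

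**Figure D2:**
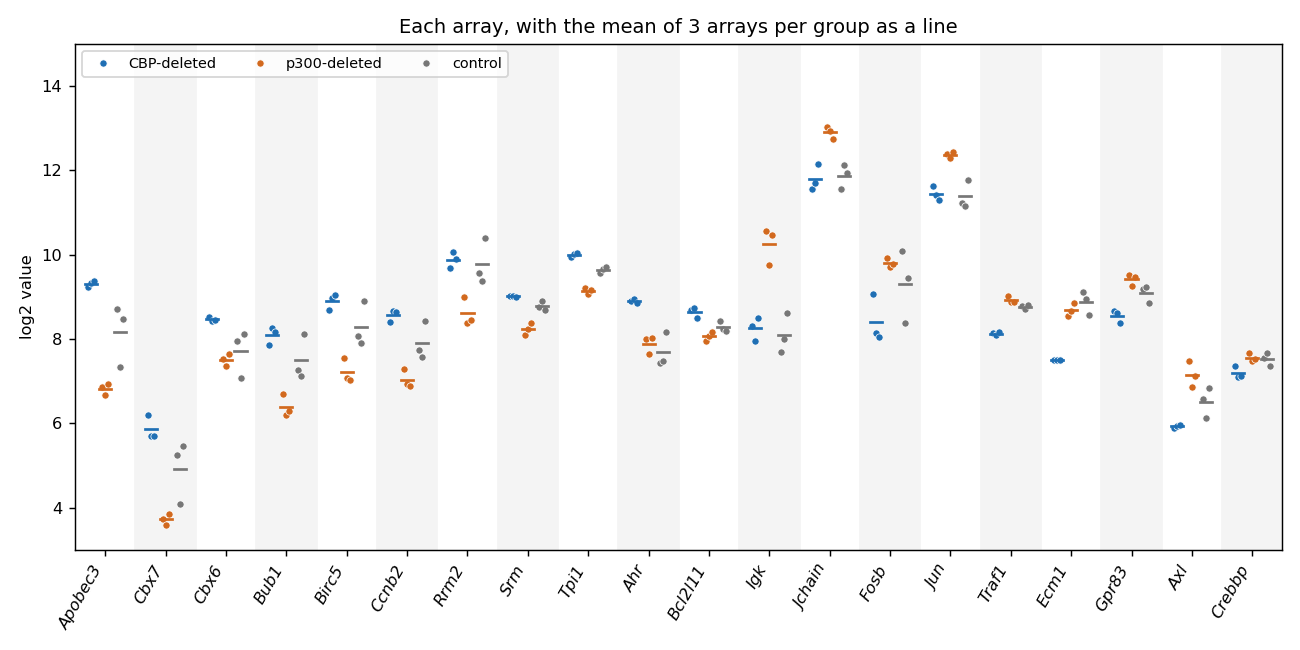
Log2 value of each array for leading genes, with the 3 CBP-deleted (blue), 3 p300-deleted (orange) and 3 control (grey) arrays side by side and the mean of each group as a line. The knockouts do not overlap for any gene drawn, from Apobec3 (2.49) to Crebbp (-0.36); controls of Apobec3, Cbx7 and the mitosis genes spread widely between or above them.

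The promoters of these genes are shown because the members move together. Genes of late cell cycle phases are known to carry a CCAAT box, bound by NF-Y, and the cell cycle genes homology region (CHR), bound by the DREAM and MuvB complexes, and S phase genes are known to carry E2F sites. The lines below give the 120 bases before the annotated start of 5 genes, read from RefSeq on GRCm38.p6, 5′ to 3′ on the strand of the gene. Ube2c lies at chr2:164769809-164769928 (plus strand), Ccnb2 at chr9:70421555-70421674 (minus strand), Cdk1 (the mitotic kinase) at chr10:69352913-69353032 (minus strand), Top2a (topoisomerase II alpha) at chr11:99024190-99024309 (minus strand) and Mcm6 (a helicase subunit) at chr1:128359706-128359825 (minus strand). Capitals mark the CCAAT box, the CHR with the letters TTTGAA and the E2F site with the letters TTTGGCGC, each also where it lies on the opposite strand, and in Ccnb2 a short cyclic AMP response element.
Ube2c: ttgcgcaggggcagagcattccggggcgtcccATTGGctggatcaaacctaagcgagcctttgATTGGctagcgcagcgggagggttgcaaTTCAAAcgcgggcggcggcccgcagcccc
Ccnb2: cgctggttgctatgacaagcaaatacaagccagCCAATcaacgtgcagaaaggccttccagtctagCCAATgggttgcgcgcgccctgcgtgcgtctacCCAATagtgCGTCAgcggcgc
Cdk1: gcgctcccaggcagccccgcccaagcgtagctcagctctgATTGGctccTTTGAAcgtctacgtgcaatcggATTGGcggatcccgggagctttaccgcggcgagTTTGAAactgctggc
Top2a: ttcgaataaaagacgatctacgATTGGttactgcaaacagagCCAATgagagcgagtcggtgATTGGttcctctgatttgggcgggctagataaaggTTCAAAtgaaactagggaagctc
Mcm6: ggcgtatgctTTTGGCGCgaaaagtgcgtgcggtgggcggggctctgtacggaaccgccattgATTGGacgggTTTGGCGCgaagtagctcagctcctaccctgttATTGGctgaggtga
Ube2c, Cdk1 and Top2a hold both elements, Ccnb2 holds 3 CCAAT boxes and no CHR in this window, and Mcm6 holds CCAAT boxes and E2F sites.

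Counted on both strands over the 300 bases around the start (250 before and 50 after), the CHR letters were found in 24 of 30 mitosis promoters (80%), 3 of 32 replication promoters (9.38%) and 12.9% of the 12566 promoters of all tested genes that have one in RefSeq. CCAAT was found in 76.7% of mitosis promoters, 56.2% of replication promoters and 37.1% of all. The E2F letters TTTGGCGC were in 15.6% of replication promoters, 0 mitosis promoters and 0.82% of all, and the E2F variant TTCCCGCC in 15.6%, 0 and 3.29%. Among the promoters of all 828 genes higher in CBP-deleted cells 18.1% held the CHR letters and 45.3% CCAAT, against 10.8% and 35.6% among those higher in p300-deleted cells. Of the lists, 27 of 34 mitosis and 27 of 32 replication genes had a promoter entry, some more than one. A match is a run of letters, not a bound site, and a CCAAT box can overlap the E2F variant.

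Some growth genes were also higher in CBP-deleted cells, by smaller amounts. Of 34 genes of ribosome biogenesis and Myc targets, 18 were higher in CBP-deleted cells and 0 in p300-deleted cells (median 0.29). Srm, which makes spermidine, read 9.04, 9.02 and 8.99 against 8.09, 8.24 and 8.39 (0.77, SE 0.08, adjusted p = 0.000541). Wdr12 (0.72), Nhp2 (0.68) and Nop16 (0.64), factors of ribosome assembly, were higher as well. Myc itself, outside the naming rule, was 0.16 higher and did not pass (adjusted p = 0.559), with p300-deleted replicate 3 at 8.96 above all CBP-deleted arrays. The count of 18 fell to 8 with all 9 arrays in the fit and also to 8 without CBP-deleted replicate 2, and to 10 without CBP-deleted replicate 1, p300-deleted replicate 1 or p300-deleted replicate 2.

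Part of the mitochondrial and proteasome genes were higher in CBP-deleted cells as well, each by little. Of 66 subunits of oxidative phosphorylation 24 were higher in CBP-deleted cells and 0 in p300-deleted cells (median 0.20), of 71 mitochondrial ribosomal proteins 27 and 0 (median 0.24), and of 37 proteasome genes 20 and 0 (median 0.23). Ndufc1, a subunit of respiratory complex I, read 9.85, 9.83 and 10.08 against 9.35, 9.60 and 9.33 (0.50, SE 0.09, adjusted p = 0.00817). Cycs (cytochrome c) was 0.46 higher, Atp5g1 (a subunit of ATP synthase) 0.44, and Ndufb2 (complex I) 0.40. Among mitochondrial ribosomal proteins Mrpl20 and Mrpl17 were each 0.47, Mrpl41 0.46 and Mrpl36 0.44 higher, although Mrpl17 has a second, dim probe set at -0.20. In the proteasome Psma5 (0.51), Psmd7 (0.49), Psmb5 (0.41) and Psma1 (0.38) were higher. The immunoproteasome subunits Psmb8 (-0.09), Psmb9 (-0.12) and Psmb10 (-0.03), outside the naming rule, did not pass (adjusted p of 0.370, 0.262 and 0.783).

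The counts of these 3 lists rest on the spread used more than their medians do. With all 9 arrays in the fit only 4 oxidative phosphorylation, 3 mitochondrial ribosome and 5 proteasome genes passed. The oxidative phosphorylation count was 10 to 15 without any array but CBP-deleted replicate 2 (17). The mitochondrial ribosome count was 13 without CBP-deleted replicate 2, 10 without CBP-deleted replicate 3 and 16 without p300-deleted replicate 1. The proteasome count was 11, 8 and 10 without CBP-deleted replicates 1, 2 and 3 and 9 without p300-deleted replicate 1. Control replicate 2 read 10.75 in oxidative phosphorylation, level with the highest CBP-deleted array (10.65 to 10.75 with CBP deleted and 10.48 to 10.51 with p300 deleted), and the other controls read 10.51 and 10.40. In the mitochondrial ribosome it read 8.83, within the CBP-deleted range of 8.70 to 8.84, and in the proteasome 10.05, between the p300-deleted arrays (9.86 to 9.93) and the CBP-deleted arrays (10.09 to 10.16).

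In glycolysis the knockouts differed both ways. Of 24 genes 6 were higher in CBP-deleted cells and 2 in p300-deleted cells (median 0.06, and 0.01 to 0.11 without single arrays). Tpi1, triosephosphate isomerase, read 9.95, 10.01 and 10.04 against 9.21, 9.06 and 9.18 (0.85, SE 0.06, adjusted p = 0.000324). Hk2 (hexokinase 2, 0.67) and Egln3 (a HIF prolyl hydroxylase, 0.65) were higher in CBP-deleted cells as well. Slc2a3, a glucose transporter, went the other way at 9.76, 9.72 and 9.71 against 10.62, 10.43 and 10.36 (-0.74, SE 0.07, adjusted p = 0.000483), and its other probe set above background was -0.71 (adjusted p = 0.00371 in the fit of every probe set). The count of 2 was 1 with all 9 arrays in the fit and without any array but p300-deleted replicate 1 (3). Of 24 heat shock genes 6 were higher in CBP-deleted cells, led by the Hsp70 relative Hspa4l (0.51) and the mitochondrial chaperones Hspe1 and Hspd1 (0.44 each), while the small heat shock protein Hspb1 was higher in p300-deleted cells (-0.75). Hspa4l and Hspd1 lost their calls with all 9 arrays in the fit (adjusted p of 0.0712 and 0.122), where the heat shock count was 2, and Hspa4l also without CBP-deleted replicate 2.

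Many early response genes were higher in p300-deleted cells. These genes are transcribed within minutes of a stimulus, many through CREB, SRF and AP-1 factors. Of 27 measured immediate early and AP-1 genes 15 were higher in p300-deleted cells and 0 in CBP-deleted cells, with a median of -0.49, against 4.50% of all genes. Fosb, an AP-1 subunit, read 9.06, 8.15 and 8.05 in CBP-deleted arrays and 9.92, 9.72 and 9.77 in p300-deleted arrays (-1.38, SE 0.22, adjusted p = 0.00336). Jun read 11.63, 11.42 and 11.30 against 12.39, 12.29 and 12.44 (-0.92, SE 0.08, adjusted p = 0.000347). Every p300-deleted array was above every CBP-deleted array in both genes, but 1385 of the 1386 called genes had arrays that did not overlap. The rule by which Fosb was named also required it.

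Other AP-1 subunits and early regulators had the same direction. Klf4, a zinc finger factor, was -1.11, Zfp36, which destabilises cytokine mRNAs, -0.90, Junb -0.83, Dusp1, a MAP kinase phosphatase, -0.78, Egr1 -0.73 and Fos -0.67. Fos itself was bright, at 12.34, 12.09 and 11.97 against 12.74, 12.75 and 12.92. The list mean was 8.83, 8.68 and 8.58 in CBP-deleted arrays and 9.27, 9.21 and 9.05 in p300-deleted arrays, without overlap, and 9.08, 8.86 and 9.07 in controls. For 9 of the 15 called members the control mean lay between the knockouts, for 3 it was higher than both and for 3 lower. The count was 13 with all 9 arrays in the fit and 14 to 17 without single arrays.

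The promoters of Fos and Fosb are given for their cyclic AMP response elements, which CREB recognises and through which CBP was first linked to transcription. The lines hold the 120 bases before the start on the gene's strand, from RefSeq on GRCm38.p6, at chr12:85473770-85473889 (plus strand) for Fos and chr7:19310046-19310165 (minus strand) for Fosb, with the short element TGACG, and in Fosb also GGCGGGAA (the E2F variant on the other strand), in capitals.
Fos: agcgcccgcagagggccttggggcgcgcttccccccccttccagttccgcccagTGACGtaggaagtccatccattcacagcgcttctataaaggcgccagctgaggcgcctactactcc
Fosb: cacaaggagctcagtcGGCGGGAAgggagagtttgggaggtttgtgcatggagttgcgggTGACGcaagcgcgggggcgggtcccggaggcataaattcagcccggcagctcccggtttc
The short element TGACG or CGTCA, which is also part of the full element TGACGTCA, was found in 60% of 25 promoters of 21 early genes and in 27.2% of all promoters. The full element was in 8% and 2.51%. In the 828 genes higher in CBP-deleted cells the short element was in 35.4% of promoters and in the 558 genes higher in p300-deleted cells in 27.8%.

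The CREB list itself, made of CREB family members and known target genes, did not follow 1 direction. Of 20 measured, 4 were higher in p300-deleted cells, 3 of which (Fosb, Dusp1 and Fos) are also early genes, and the fourth was Atf4 (-0.39). Penk, the enkephalin precursor, was higher in CBP-deleted cells, at 10.17, 10.03 and 10.42 against 9.38, 9.90 and 9.56 (0.59, SE 0.13, adjusted p = 0.0191), above the controls (8.28, 8.54 and 8.36) in all 6 arrays. Both Atf4 and Penk lost the call without some arrays: Atf4 without CBP-deleted replicates 2 or 3 and p300-deleted replicates 1 or 2 and with all 9 arrays (adjusted p up to 0.272 over its alternatives), Penk without CBP-deleted replicates 1 or 3 or p300-deleted replicate 1 (up to 0.0653).

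Some NF-kappaB genes were lower in CBP-deleted cells, though most did not pass. Of 22 measured, 7 were higher in p300-deleted cells and 0 in CBP-deleted cells (median -0.27). Traf1, an adaptor of TNF receptors, read 8.15, 8.09 and 8.16 against 9.02, 8.89 and 8.89 (-0.80, SE 0.07, adjusted p = 0.000346), with controls at 8.78, 8.72 and 8.81. Tnf, the cytokine, read 7.43, 7.14 and 7.07 against 7.84, 8.11 and 7.78 (-0.70, SE 0.12, adjusted p = 0.00489), with controls at 8.03, 7.93 and 7.90. In both genes the p300-deleted arrays were near the controls and the CBP-deleted arrays lay below all others. Bcl3 (a nuclear IkappaB protein, -0.43), Rela (the p65 subunit, -0.30) and Nfkbia (an IkappaB inhibitor, -0.29) were smaller differences. The count was 4 with all 9 arrays in the fit, 3 without CBP-deleted replicates 2 or 3 and 4 without p300-deleted replicate 1, and Rela and Bcl3 were among the calls lost without CBP-deleted replicates 2 or 3. The letters GGGANTTCC were in 6 of 23 promoters of 17 genes of this list (26.1%) and in 1.97% of all promoters.

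Interferon-gamma inducible GTPases, which attack intracellular pathogens, were higher in p300-deleted cells in 6 of 11 measured members (median -0.34). Gbp8 (-0.59, adjusted p = 0.00508) and Irgm2 (-0.58, adjusted p = 0.00455) led, and Gbp2b (-0.54, adjusted p = 0.0447) and Iigp1 (-0.49, adjusted p = 0.0476) were near the threshold. The count was 3 with all 9 arrays, without CBP-deleted replicates 2 or 3 and without p300-deleted replicate 3, and 4 without CBP-deleted replicate 1 or p300-deleted replicate 2. None of 25 type I interferon genes passed in limma, in either direction. At an unadjusted p below 0.05, which 3121 of all 12393 genes met, 7 were higher with CBP deleted and 2 with p300 deleted. Oas1a (0.39, adjusted p = 0.0576) and Ifi27l2a (0.36, adjusted p = 0.0656) were the nearest, and without p300-deleted replicate 3, which had the highest level of the list among all 9 arrays (8.09), 5 members were called higher in CBP-deleted cells.

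In the IL-2, STAT5 and SOCS list 4 of 16 genes were higher in p300-deleted cells and 0 in CBP-deleted cells (median -0.14). Lta, lymphotoxin alpha, read 8.13, 8.16 and 7.86 against 8.79, 9.12 and 8.93 (-0.90, SE 0.11, adjusted p = 0.000861). The others, Socs2 (-0.74), Cish (-0.71) and Socs3 (-0.55), are feedback inhibitors of cytokine receptors that STAT5 or STAT3 induces. Socs3 lost its call without CBP-deleted replicates 1 or 2 or p300-deleted replicate 2, with adjusted p up to 0.0622. Skil, a corepressor of Smad signalling, was the only TGF-beta gene of 20 to pass (-0.53, adjusted p = 0.00811), and 3 passed without p300-deleted replicate 1. The single call is 5.0% of the list, near the 4.50% of all genes higher in p300-deleted cells.

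Treg signature genes went both ways, with more of them higher in p300-deleted cells: 11 of 28 were higher there and 3 in CBP-deleted cells (median -0.13). Ecm1, an extracellular matrix protein of Treg and Th2 cells, read 7.5, 7.52 and 7.5 against 8.55, 8.68 and 8.85 (-1.19, SE 0.09, adjusted p = 0.000253), with controls at 9.12, 8.95 and 8.58. Gpr83, an orphan receptor, was -0.87 and Izumo1r, the folate receptor family member FR4, -0.78. Capg (-0.69), Ikzf4 (the Ikaros factor Eos, -0.63), Ebi3 (a chain of IL-35, -0.58), Entpd1 (the ectonucleotidase CD39, -0.56) and Nrp1 (neuropilin 1, -0.27) had the same sign. CBP-deleted cells were thus lower than p300-deleted cells in several genes tied to suppression or Treg identity, but not in all.

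The 3 members higher in CBP-deleted cells were Plagl1, Icos and Ctla4. Plagl1, a zinc finger factor, read 8.93, 8.69 and 8.57 against 8.06, 7.58 and 7.57 (0.99, SE 0.14, adjusted p = 0.00183). This rests on 1 probe set of 2: the other, at background (3.45), was 0.30 higher with an adjusted p of 0.405 when it was used in its place. Icos, a costimulatory receptor, was 0.61 higher (adjusted p = 0.0329, lost without CBP-deleted replicates 1 or 2 or p300-deleted replicate 2 and with all 9 arrays, range up to 0.150), and Ctla4, the inhibitory receptor, 0.24 higher (adjusted p = 0.0201). Il10 (0.08, adjusted p = 0.680), Ikzf2 (-0.02, adjusted p = 0.962) and Tnfrsf18 (GITR, -0.19, adjusted p = 0.0685) did not pass. Of the 14 called members the control mean was between the knockouts for 8, above both for 3 and below both for 3. With all 9 arrays in the fit 8 were higher in p300-deleted cells and 1 in CBP-deleted cells, and without CBP-deleted replicates 1 or 2 or p300-deleted replicate 2 the latter was also 1.

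Genes of T cell receptor signalling differed little: 6 of 24 were higher in p300-deleted cells and 1, Cd28, in CBP-deleted cells (median -0.13). Cd5, an inhibitory receptor whose level follows receptor signalling, read 10.76, 10.61 and 10.48 against 11.129, 11.106 and 10.997 (-0.46, SE 0.08, adjusted p = 0.00437). Cd4 (-0.51), Fyn (-0.35), Cd6 (-0.28) and Cd3e (-0.21, adjusted p = 0.0491) were the other named ones. Only 1 of the 6 passed with all 9 arrays in the fit, 2 passed without CBP-deleted replicates 2 or 3 or p300-deleted replicate 1, and 3 without p300-deleted replicate 2.

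Among 28 writers, readers and erasers of acetylation, the closest relatives of the deleted enzymes in function, 3 were higher in CBP-deleted cells and 4 in p300-deleted cells (median -0.07, and -0.03 to -0.13 without single arrays). Hat1, which acetylates new histones before they are built into chromatin, read 8.65, 8.64 and 8.78 against 8.19, 8.24 and 7.98 (0.55, SE 0.09, adjusted p = 0.00338). Besides Crebbp, the coactivator Ncoa3 (-0.46, adjusted p = 0.0219) and the acetyltransferase Kat6a (-0.33, adjusted p = 0.0481) were higher in p300-deleted cells. Those 2 calls were lost with all 9 arrays (adjusted p of 0.0796 and 0.102) and without CBP-deleted replicates 2 or 3 or p300-deleted replicate 2, and Kat6a also without p300-deleted replicates 1 or 3. With all 9 arrays in the fit 1 member of the list passed, and without single arrays 1 to 3 were higher in CBP-deleted cells and 0 to 4 in p300-deleted cells.

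Several immunoglobulin and plasma cell transcripts were higher in p300-deleted cells. Plasma cells are B lineage cells that secrete antibody. Of 6 measured genes in the list of constant and joining chains 5 were higher in p300-deleted cells (median -1.28). They include Iglv1, which is named for a lambda variable segment. Igk, of the kappa light chain, read 8.32, 7.96 and 8.49 against 10.57, 9.75 and 10.48 (4.03-fold, -2.01, SE 0.20, adjusted p = 0.000483), with controls at 7.69, 8.01 and 8.61. Jchain, the joining chain, read 11.56, 11.70 and 12.15 against 13.04, 12.93 and 12.74 (-1.10, SE 0.13, adjusted p = 0.000968). The p300-deleted arrays stood above the other 6 arrays in both genes, and 3 of the 4 probe sets of Igk shared the sign.

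The remaining chains agreed in sign. Iglv1, the lambda segment, was -1.47, Igha, the heavy chain of IgA, -0.94 and Ighm, the heavy chain of IgM, -0.58. Igha (13.72 to 13.90 in p300-deleted arrays) and Ighm (13.99 to 14.06) are near the top of the scale. Ighg3, the heavy chain of IgG3, did not pass (adjusted p = 0.181) despite a mean difference of -3.11, since it read 5.23, 5.70 and 9.29 in CBP-deleted arrays and 11.61, 11.39 and 6.55 in p300-deleted arrays. CBP-deleted replicate 3 and p300-deleted replicate 3 were the arrays out of order.

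Of 10 plasma cell markers 5 were higher in p300-deleted cells and 0 in CBP-deleted cells (median -0.61). Derl3, which serves protein disposal from the endoplasmic reticulum, read 6.23, 6.33 and 6.48 against 8.17, 7.23 and 7.39 (-1.25, SE 0.21, adjusted p = 0.00409). Tnfrsf17, the receptor BCMA, was -1.12, Sdc1, the plasma cell proteoglycan CD138, -1.10 and Xbp1, the secretory regulator, -0.76. Prdm1, shared by plasma cells and Treg cells, was -0.04 (adjusted p = 0.804). The mean of the marker list was 7.58, 7.63 and 7.82 in CBP-deleted arrays, 8.60, 8.06 and 8.26 in p300-deleted arrays and 7.65, 7.72 and 7.68 in controls. The knockouts did not overlap, and the controls were level with CBP-deleted cells. In the fit of all 9 arrays 5 immunoglobulin genes and 5 plasma cell markers passed.

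Some endoplasmic reticulum genes were higher in p300-deleted cells too. Of 40 genes of folding, secretion and the unfolded protein response 8 were higher in p300-deleted cells and 1 in CBP-deleted cells (median -0.14, but -0.04 without p300-deleted replicate 1), led by Derl3, Xbp1 and Herpud1 (-0.59, adjusted p = 0.00104). Hspa5, the chaperone BiP, read 12.02, 11.87 and 11.91 against 12.37, 12.28 and 12.04 (-0.30, SE 0.08, adjusted p = 0.0490). Since Derl3 and Xbp1 are also plasma cell markers, these lists share members. The count was 3 with all 9 arrays in the fit, 4 without CBP-deleted replicate 2 and 5 without CBP-deleted replicate 3 or p300-deleted replicate 1. The part of plasma cell RNA in the endoplasmic reticulum result was not tested.

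**Figure D3:**
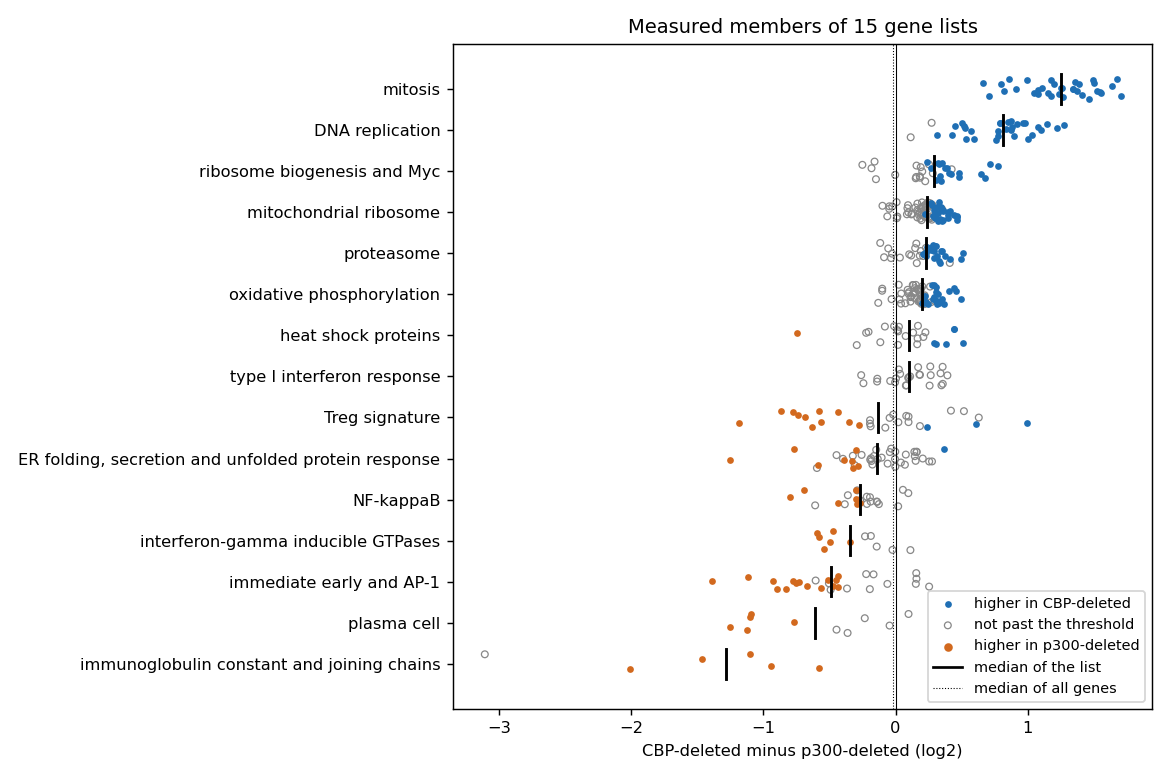
Difference between the knockouts (log2) for every measured member of each gene list, 1 point per gene, with the list's median as a thick line and the median of all genes (-0.0185) dotted. Blue and orange points passed an adjusted p of 0.05; all 34 mitosis genes lie right of 0.66, and the early response, plasma cell and immunoglobulin lists lie mostly left of 0.

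Markers of other cells did not sort as cleanly by genotype, although the median of each of their lists was negative too. It was -0.64 for neutrophil, -0.41 for mast cell and basophil and -0.25 for monocyte, macrophage and dendritic cell markers. For CD8 T cell and NK cell markers it was -0.46 and for killer lectin-like receptors -0.37. For MHC class II genes it was -0.10 and for erythroid and platelet markers -0.04, against -0.0185 over all genes. Of 13 B cell markers 4 were higher in p300-deleted cells (median -0.29): Cd79a (-0.82) and Cd79b (-0.58), the signalling chains of the B cell receptor, Cd72 (-0.79) and Fcrla (-0.59). All 4 had control means above both knockouts, and only Cd72 (7.24, 7.11 and 7.43 against 8.16, 8.06 and 7.94) held its call with all 9 arrays in the fit. The count was also 1 without CBP-deleted replicates 1 or 2 or p300-deleted replicates 1 or 3. Pax5, the B lineage factor, read 3.12 to 3.66, at the level of Xist. None of 9 MHC class II genes passed in limma, and 0 did at an unadjusted p below 0.05. Cd74, the invariant chain, was -0.36 (adjusted p = 0.213) and H2-Ab1 was -0.27 (adjusted p = 0.483).

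Neutrophil genes varied more between replicates than between genotypes. The list mean was 5.05, 5.01 and 6.59 in CBP-deleted arrays, 7.02, 5.28 and 5.98 in p300-deleted arrays and 4.63, 4.39 and 4.87 in controls. CBP-deleted replicate 3 and p300-deleted replicate 1 were high and the groups overlapped. Of 15 members 2 were called higher in p300-deleted cells, Slpi, a protease inhibitor (6.86, 7.97 and 8.99 against 9.96, 9.0 and 10.28, adjusted p = 0.0347), and Mmp9, a matrix protease (5.12, 4.82 and 5.42 against 7.14, 5.80 and 5.88, adjusted p = 0.0423). Neither held: Slpi was lost without CBP-deleted replicates 1 or 2 or p300-deleted replicates 1 or 3 (adjusted p up to 0.0957) and Mmp9 without any CBP-deleted replicate (up to 0.149). S100a8 (-0.08, adjusted p = 0.966) and S100a9 (0.05, adjusted p = 0.980) did not pass.

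Mast cell and basophil genes had 1 call among 13 (7.7%, against 4.50% of all genes higher in p300-deleted cells). At an unadjusted p below 0.05, which 3121 of all 12393 genes met, 7 were higher in p300-deleted cells and 0 in CBP-deleted cells. The call was the carboxypeptidase Cpa3 (5.94, 5.55 and 6.55 against 7.37, 6.59 and 7.33, -1.08, adjusted p = 0.0247). It was lost without CBP-deleted replicates 1 or 2 or p300-deleted replicates 1 or 3 (up to 0.0897), whereas 5 members passed without CBP-deleted replicate 3 and 2 without p300-deleted replicate 2. Fcer1a, a chain of the IgE receptor (-1.34, adjusted p = 0.0631), and Mcpt8, a basophil protease (-1.0, adjusted p = 0.193), did not pass. None of 15 monocyte, macrophage and dendritic cell markers passed in limma (1 higher with CBP deleted and 3 with p300 deleted at an unadjusted p below 0.05), nor did any of 9 erythroid and platelet markers (2 at an unadjusted p below 0.05). The myeloid integrin Itgax was -0.68 (adjusted p = 0.0581), lysozyme Lyz2 -0.66 (adjusted p = 0.503) and the receptor Csf1r -0.58 (adjusted p = 0.526). Without CBP-deleted replicate 3 the monocyte count was 2. Of the erythroid and platelet genes Slc4a1 was -0.59 (adjusted p = 0.0809), Alas2 -0.45 (adjusted p = 0.161) and Pf4 0.02 (adjusted p = 0.961).

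**Figure D4:**
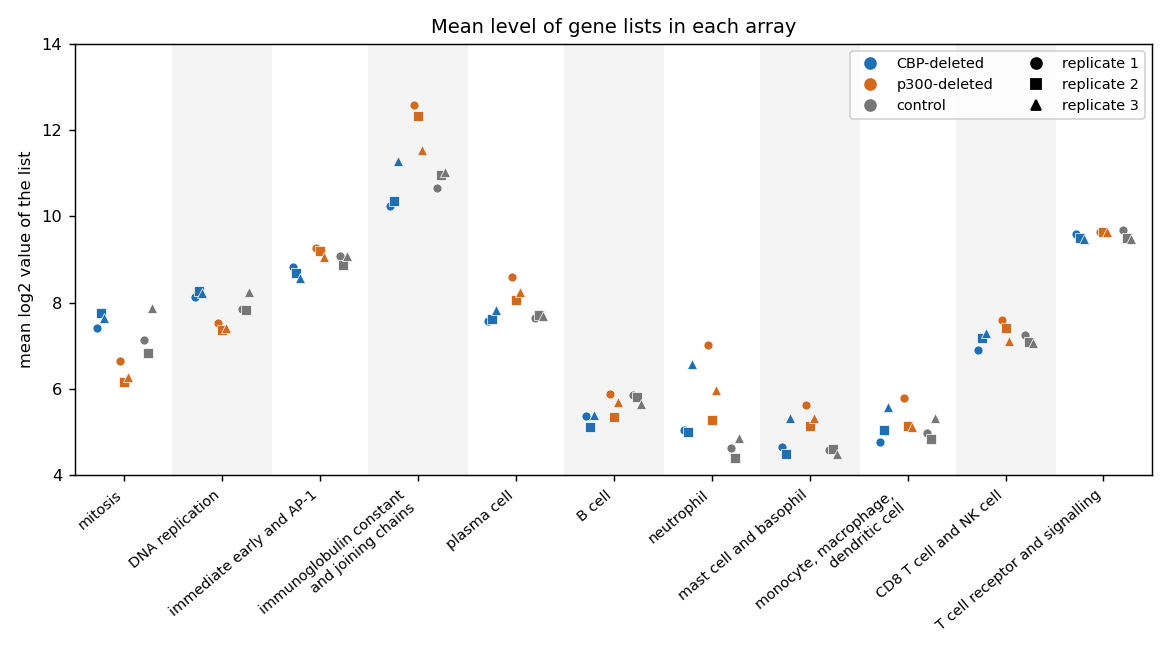
Mean log2 value of each gene list in each of the 9 arrays, coloured by group, with the replicate given by the symbol. The mitosis and replication lists separate the knockouts with controls between or above them, the plasma cell list is raised in p300-deleted arrays (8.06 to 8.60), and the neutrophil list is high in CBP-deleted replicate 3 (6.59) and p300-deleted replicate 1 (7.02).

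Of 14 markers of CD8 T cells and NK cells 3 were higher in CBP-deleted cells (Gzmb, 0.78; Cd8b1, 0.42; Eomes, 0.33) and 2 in p300-deleted cells (Gzma, -0.71; Prf1, -0.49). The granzymes therefore went opposite ways: granzyme B read 7.87, 8.12 and 8.64 against 7.66, 7.32 and 7.32 (controls 8.42, 7.60 and 9.56), and granzyme A 8.46, 8.85 and 9.40 against 9.50, 9.67 and 9.68. None of the 5 passed with all 9 arrays in the fit, where the adjusted p of Gzmb was 0.296. Gzmb was also lost without CBP-deleted replicate 2 or p300-deleted replicates 2 or 3 (up to 0.0717), and Gzma whichever array was left out except CBP-deleted replicate 3 (up to 0.112). Ncr1, the NK cell receptor NKp46, was 7.56 and 7.21 in p300-deleted replicates 1 and 2 and 5.83 in replicate 3, against 5.36 to 5.96 in CBP-deleted arrays (-1.18, adjusted p = 0.0690). Of 16 killer lectin-like receptors Klrb1a (-0.89, adjusted p = 0.0398) and Klrc3 (-0.35, adjusted p = 0.0440) were called. Klrc3 read 1.93 to 2.52, below Xist, and carries no level, and both calls were lost with all 9 arrays and without CBP-deleted replicates 1 or 2 or p300-deleted replicates 1 or 2; without p300-deleted replicate 3 the count was 6.

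Helper lineage genes gave few calls in either direction. Ahr, the aryl hydrocarbon receptor, read 8.90, 8.95 and 8.86 in CBP-deleted arrays and 8.0, 7.64 and 8.03 in p300-deleted arrays (1.01, SE 0.10, adjusted p = 0.000499), with controls at 7.43, 7.47 and 8.18. Its other probe set, at 3.87, read background. Cxcr5, the follicular homing receptor, read 6.67, 6.38 and 6.51 against 7.65, 7.26 and 7.38 (-0.91, SE 0.12, adjusted p = 0.00134). CBP-deleted cells were thus high in the former and low in the latter, with the p300-deleted arrays nearer the controls in both.

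Of 16 Tfh and Th17 genes 3 were higher in CBP-deleted cells and 1 in p300-deleted cells (median 0.02), and 1 and 1 with all 9 arrays in the fit. Sh2d1a, the adaptor SAP, was 0.64 higher (adjusted p = 0.0138, and 0.0623 with all 9 arrays). Of 11 Th2 genes Ccr8, a chemokine receptor (0.57, adjusted p = 0.0167), and Gata3, the lineage factor (0.26, adjusted p = 0.0423), were higher in CBP-deleted cells and Il13, a cytokine (-0.40, adjusted p = 0.0394), in p300-deleted cells, and none of the 3 passed with all 9 arrays. Of 14 Th1 genes 2, Tnf and Irf1 (-0.48), were higher in p300-deleted cells (median -0.23, but -0.06 without p300-deleted replicate 1 and -0.14 without CBP-deleted replicate 1). Irf1 was lost without CBP-deleted replicate 2 or p300-deleted replicates 1 or 2 (up to 0.0892), while the count was 4 without p300-deleted replicate 3. Of 20 chemokine and homing receptors only Ccr8 and Cxcr5 passed, 5.0% in each direction, near the 6.68% and 4.50% of all genes.

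Survival and stress genes included Bcl2l11 (BIM, a killer of lymphocytes), at 8.68, 8.75 and 8.50 in CBP-deleted arrays and 7.96, 8.08 and 8.16 in p300-deleted arrays (0.58, SE 0.09, adjusted p = 0.00267), with all 5 of its probe sets between 0.55 and 0.70. Of 14 BCL2 family genes Bak1 (0.38) was also higher in CBP-deleted cells, and Bik (-0.69), Bbc3 (PUMA, -0.45) and Mcl1 in p300-deleted cells. Pro-death members thus lay on both sides. Of 22 p53 targets 4 were higher in p300-deleted cells and 0 in CBP-deleted cells (median -0.12, and -0.07 without CBP-deleted replicate 3): Btg2 (-0.75), Bbc3, Fas (-0.32) and Trp53inp1 (-0.22). Bak1, Bik, Bbc3, Btg2, Fas and Trp53inp1 all lost their calls with all 9 arrays in the fit (adjusted p of 0.0593, 0.125, 0.144, 0.159, 0.105 and 0.350), and apart from Btg2 also without CBP-deleted replicate 2.

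Cyclic nucleotide signalling, which feeds CREB, differed gene by gene. Gucy1b1, a subunit of the nitric oxide receptor guanylate cyclase, read 5.16, 4.92 and 4.96 in CBP-deleted arrays and 3.91, 3.96 and 3.13 in p300-deleted arrays (1.35, SE 0.20, adjusted p = 0.00281). The control arrays (3.43 to 3.83) and p300-deleted replicate 3 are at about the Xist level, and the other p300-deleted readings lie little above it. Ptger2, a prostaglandin E2 receptor, read 7.12, 7.21 and 7.0 against 8.28, 7.93 and 7.67 (-0.85, SE 0.14, adjusted p = 0.00390). The phosphodiesterases Pde8a (-0.65) and Pde2a (-0.58) were also higher in p300-deleted cells, Pde2a not with all 9 arrays (adjusted p = 0.118). Of 22 genes 3 were higher with CBP deleted and 5 with p300 deleted (median -0.05), and with all 9 arrays 2 and 2; without p300-deleted replicate 2 the count higher in CBP-deleted cells was 1. Of 19 cholesterol synthesis genes 1 passed, Ebp (0.26, adjusted p = 0.0344), and the call was lost whichever array was left out. It makes up 5.3% of the list, against 6.68% of all genes higher in CBP-deleted cells.

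Further genes that led in p300-deleted cells belong to no list. Prg2, eosinophil major basic protein, read 5.06, 4.86 and 5.49 against 7.09, 6.69 and 6.84 (3.33-fold, -1.73, SE 0.17, adjusted p = 0.000443), with control replicate 2 at 6.40 between the groups. Oosp1, an oocyte-secreted protein, was -1.38 and Sh3gl3, an endophilin, -1.30. Axl, a receptor kinase that binds apoptotic cells through Gas6, read 5.89, 5.95 and 5.97 against 7.47, 6.87 and 7.14 (-1.23, SE 0.14, adjusted p = 0.000697).

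Apobec2, a relative of Apobec3 known from muscle, had the opposite sign to it, at 4.0, 4.16 and 4.23 against 5.17, 5.29 and 5.49 (-1.19, SE 0.13, adjusted p = 0.000541), and controls at 5.27 to 5.40. Rgs16, a regulator of G protein signalling, was -1.16 at its brightest probe set and -0.90 and -0.55 at the others, the last of which did not pass (adjusted p = 0.222 in the fit of every probe set). Baiap3, a vesicle trafficking protein, was -1.15. Dst (dystonin, a cytoskeletal linker) was -1.13 at its brightest probe set and had 2 of 4 probe sets of that sign, the other 2 at background. Psg28, a pregnancy-specific glycoprotein, was -1.13 but lost its call with all 9 arrays (adjusted p = 0.178) and without CBP-deleted replicates 1 or 2.

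The position of the controls differed between the directions. Of the 828 genes higher in CBP-deleted cells the control mean lay between the knockouts for 638, above both for 95 and below both for 95. Of the 558 genes higher in p300-deleted cells it lay between them for 324, above both for 160 and below both for 74. Other probe sets of the called genes mostly shared their sign: 87.4% of 698 for genes higher in CBP-deleted cells and 88.2% of 397 for genes higher in p300-deleted cells, where 48.4% of all 7987 such further probe sets were positive. Of these 236 and 99 were called in the same direction and 1 and 1 in the opposite one.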

How the data were processed

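Affymetrix arrays of 9 samples were deposited as 1 log2 value per probe set and array. Per the submitters' processing notes the authors summarised them with RMA; no version or annotation is given in the sources used here, and the log2 values were used as deposited. Of 22690 probe sets 64 are controls, 20380 carry 1 gene symbol, 691 several and 1555 none; 24 identifiers had no match in RefSeq. The probe set with the highest mean over all 9 arrays stood for its gene. The 6 knockout arrays were fitted with limma 3.58.1 in R 4.3.3 (4 residual degrees of freedom, trended empirical Bayes, two-sided, Benjamini-Hochberg over 12393 genes at 0.05). An exact permutation test of 3 against 3 cannot go below 0.1, so none was used. For arrays depth is undefined, and their number limits the precision. On simulated data for this comparison, with 200 of 12393 genes changed, 67.5%, 99.7% and 100% of differences of 0.5, 1 and 2 were recovered, with 5.82% false calls. The simulated noise was independent between genes and far fewer genes changed than were called here. These shares therefore need not hold for the real arrays, where genes vary together.

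Named genes are Crebbp and Foxp3, the 15 highest and 15 lowest called genes whose arrays do not overlap (predicted genes and immunoglobulin variable segments left out), and for each of 37 lists up to 4 called members, or else 2 as values, and defining cell type markers. Others, such as Cbx6, Myc, Junb, Egr1, Nfkbia, Capg, Ikzf4, Ebi3, Entpd1, Nrp1, Ctla4, Il10, Eomes, Ighm, Ighg3, Pax5 and Hspa5, were chosen after their values were seen. The comparison, members and lists were chosen with earlier results of these data known. Alternatives were other probe set choices, scalings and variance models, the control arrays in the fit, a block by replicate number and leaving out each array. Probe set coordinates were not used.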

Additional observations from a re-analysis of the deposited data

Results flagged for a closer look

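Probe sets that carry several gene names or none, 2246 in all, enter no gene comparison. Of the 2246, 86 were called higher in CBP-deleted cells and 62 higher in p300-deleted cells in the fit of every probe set. Among these called probe sets, 24 had every CBP-deleted array above every p300-deleted and every control array. In 28 of them every p300-deleted array lay above all others. How often uncalled or named probe sets show such an order is not given, so the 24 and 28 have no background share. Over all 22626 probe sets of the same fit 1102 and 631 were called, so the calls are no more frequent here than elsewhere. The 18S ribosomal RNA probe sets, also outside the comparisons, averaged 8.52 in p300-deleted and 7.75 in CBP-deleted arrays, against 6.97 ± 1.66 (SD, n = 3) in controls, and were named here because the means of both knockouts exceed that of the controls. Groups of 3 arrays are too small for a test of single outlying arrays.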

How the results depend on the processing

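Of 12393 genes, 1386 differed between the knockouts, 828 higher with CBP deleted and 558 with p300 deleted, 405 of them at least 1.5-fold. With all 9 arrays in the fit the counts were 645, 396 and 249, and at an adjusted p of 0.01 they were 590, 378 and 212. Leaving out 1 array gave 746 to 1361 genes, 458 to 805 higher with CBP deleted and 288 to 556 with p300 deleted. Testing every probe set on its own gave 619 probe sets changed at least 1.5-fold. The cause of these changes was not tested, except that fewer arrays or more probe sets change what is tested. Of 128 named genes that passed, 74 passed in every alternative that tested them, 39 lost the call with all 9 arrays in the fit and 37 without CBP-deleted replicate 2. There were 16 alternatives for single genes, but 15 for dim genes such as Cbx7, which the setting without dim probe sets left out. None of the 128 named genes that passed changed sign, but where groups do not overlap the sign could not change when an array was left out. Named genes that did not pass were not part of this check. The median of the Treg signature was -0.19 with dim probe sets left out, and without single arrays the medians of DNA replication and the proteasome ran from 0.76 to 0.90 and from 0.22 to 0.29.

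Replicate numbers are shared between the knockouts, and the arrays gave no sign that they pair the samples. Deviations from the group means correlated at -0.21, -0.02 and -0.23 for same-numbered arrays, and no array correlated best with its own number. With 3 arrays per group such correlations cannot exclude pairing. With a replicate block 850 genes passed, 504 higher with CBP deleted and 346 with p300 deleted, 384 of them at least 1.5-fold, and 25 named genes lost the call.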
